A study of Mus musculus with 12 samples.

Results

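The adipokine genes Lep, Adipoq, Retn, Rbp4, Cfd, Nampt, Apln and Agt were followed by RNA-seq in mature white adipocytes from mouse epididymal fat. They were picked by name, with no threshold on a measured value but with earlier results of these data known, and make up 8 of its 20295 genes. All 8 passed the filter on low counts and were among the 13543 genes tested. The adipocytes (eWAs) came from lean male C57/BL6J mice, whose age is not given in the labels, were floated out of collagenase-digested epididymal fat and were cultured for 2 days in a 3-dimensional hydrogel. They then received the vehicle (DMSO), the pan β-adrenergic agonist isoproterenol for 3 h (ISO), inhibitors of ATGL and HSL, the main triglyceride lipases (Lip), or the inhibitors and then isoproterenol for 3 h (Lip+ISO). Each group had 3 libraries. All 4 groups share the isolation and the culture, and floated adipocytes can carry cells of the vessel wall and other stromal cells with them. In such bulk samples, fewer cells of a type and less RNA per cell cannot be told apart.

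Adipokines are proteins that fat cells secrete and that act on the brain, the liver, the vasculature, immune cells or the fat itself. Leptin reports the size of the fat store to the hypothalamus, adiponectin acts on liver and muscle metabolism, and adipsin (Cfd) is the protease that starts the alternative complement pathway. Resistin (Retn) and retinol-binding protein 4 (Rbp4) have been linked to insulin resistance, Nampt is the rate-limiting enzyme of NAD salvage and is also found outside cells, and apelin (Apln) and angiotensinogen (Agt) are precursors of vasoactive peptides. Isoproterenol raises cAMP in the adipocyte, which activates protein kinase A and, through it, lipolysis. The design therefore asks how each transcript responded to the agonist, and whether that response differed when the lipases were inhibited.

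With all libraries and no term for the replicate, Lep and Rbp4 were the members called in comparisons with the agonist. Adding such a term also called Apln and Nampt, as given below. The promoter windows shown are those of Lep and Rbp4. Each runs from 250 bases before to 50 bases after the transcript start, as RefSeq places it in GRCm38.p6. Capitals mark matches, on either strand, to the motifs searched: the cAMP response element TGACGTCA and its TGACG part, the E-box CACGTG, the C/EBP-type sequence TTGCNNAA and the TATA box TATAAA. A TGACGTCA match also holds TGACG. The Lep window is chr6:29059971-29060270 on the plus strand and the Rbp4 window is chr19:38124762-38125061 on the minus strand.
Lep: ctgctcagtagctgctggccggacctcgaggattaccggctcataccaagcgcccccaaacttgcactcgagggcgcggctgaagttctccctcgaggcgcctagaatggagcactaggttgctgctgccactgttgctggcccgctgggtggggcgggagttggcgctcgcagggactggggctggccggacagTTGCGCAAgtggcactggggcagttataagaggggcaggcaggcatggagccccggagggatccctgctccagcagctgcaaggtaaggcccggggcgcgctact
Rbp4: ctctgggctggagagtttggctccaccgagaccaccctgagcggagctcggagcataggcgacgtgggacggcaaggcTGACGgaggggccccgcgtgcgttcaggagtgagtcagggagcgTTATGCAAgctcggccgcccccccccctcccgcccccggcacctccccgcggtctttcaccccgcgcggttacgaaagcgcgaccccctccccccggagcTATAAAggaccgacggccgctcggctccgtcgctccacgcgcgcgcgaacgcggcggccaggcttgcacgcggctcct
In the Lep window the match was to TTGCNNAA, at -55 to -48 from the start. The Rbp4 window held TGACG at -172 to -168, TTGCNNAA at -128 to -121 (read on the opposite strand) and TATAAA at -28 to -23, while a second Rbp4 window held no match. Of the other members, Nampt had TGACG at -135 to -131 and Agt had TATAAA at -30 to -25, and the windows of Adipoq, Retn, Cfd and Apln held none of these motifs. Among all 32851 windows of this length, 10.8% held TTGCNNAA, 20.8% TGACG, 13.6% TATAAA, 7.15% CACGTG and 1.79% TGACGTCA. These matches are letters in a window and do not show binding.

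The libraries held 22632220 to 43707557 counts, with 15141 to 17079 genes detected. Replicates of a group differed beyond counting error, with a chi-square per degree of freedom of 73.5 between replicates 1 and 3 of Lip+ISO against 15.7 to 38.9 for each other pair. Values below are depth-scaled counts (CPM), adjusted between libraries by the TMM method, and levels of different genes are compared as CPM per kilobase of counted exon. The fewest counts behind a member were 156 for Apln and 652 for Lep, where counting error alone is 8.01% and 3.92% of the value, and each other member had at least 2087 counts in every library. Markers of adipocytes (10 of 10 detected, among them Fabp4, Plin1 and Adrb3) summed to between 34120 and 48300 CPM. Markers of epididymis and testis summed to at most 1.271 CPM, with 1 of 10 at 0 in every library.

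Cfd and Adipoq were the most abundant adipokine transcripts per length. In DMSO, Cfd stood at 5257 ± 1106 CPM per kb (SD, n = 3) and Adipoq at 2539 ± 416. Agt followed at 538 ± 80.2 CPM per kb and Retn at 379 ± 56.2. Rbp4 was lower, at 82.3 ± 10.9 CPM per kb. Lep at 45.2 ± 10.7 and Nampt at 42.5 ± 4.33 CPM per kb did not differ beyond their spread in DMSO, and Apln was lowest at 3.51 ± 2.20. The order Cfd, Adipoq, Agt, Retn, Rbp4, then Nampt and Lep, then Apln was found in 12 of 12 libraries for each pair of neighbours except Nampt and Lep. Nampt was above Lep in 9 of 12 libraries. With ISO, Lep stood at 12.7 ± 4.78 CPM per kb and Nampt at 38.6 ± 7.22.

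**Figure D1:**
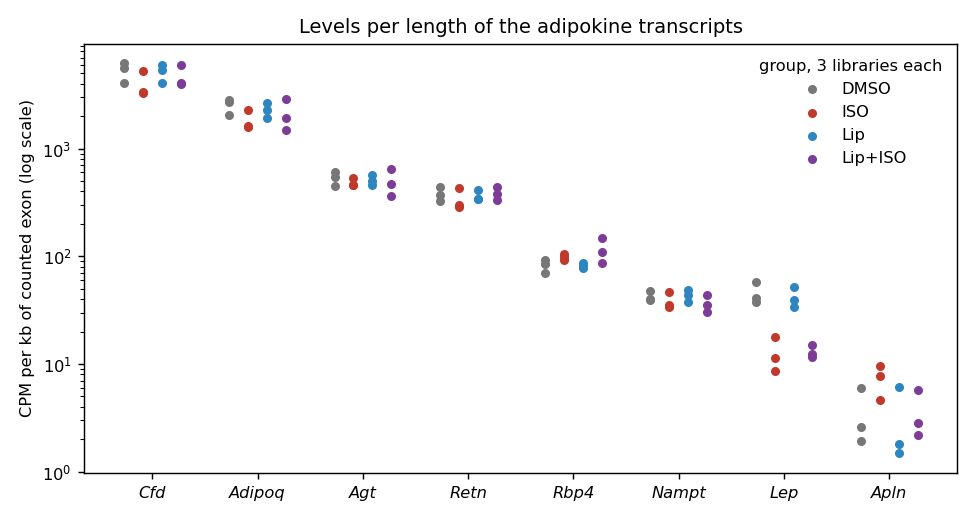
Level of each adipokine transcript in CPM per kb of counted exon (log axis), with 1 point per library and the 4 groups in colour. Cfd and Adipoq lie on top, Apln at the bottom, and Lep is level with Nampt in DMSO and Lip and below it in ISO and Lip+ISO.

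Lep (NM_008493, mm9 chr6:29010221-29023876, plus strand), which encodes the satiety hormone leptin, fell with ISO whether or not the lipases were inhibited. The DMSO libraries had 187.1, 132.6 and 122.4 CPM and the ISO libraries 58.5, 37.3 and 28.2. The Lip libraries had 168, 128 and 110 CPM and the Lip+ISO libraries 37.8, 48.8 and 40.7. Every library with the agonist was below every library without it, so the groups did not overlap in either comparison. The share of all genes with no such overlap was not counted. Lep was 3.57-fold lower in ISO than in DMSO (log2 fold change -1.84 ± 0.25 SE, adjusted p = 0.000192) and 3.19-fold lower in Lip+ISO than in Lip (-1.67 ± 0.25, adjusted p = 0.00024). Across all tested genes, 13.9% were called lower in ISO than in DMSO and 15.8% in Lip+ISO than in Lip, where a call means an adjusted p of 0.05 or less, whatever the size of the change. The inhibitors left no difference in Lep that passed the test. Between Lip+ISO and ISO the log2 difference was 0.04, with a 95% interval of -0.49 to 0.57 (adjusted p = 0.943). The difference between both responses to ISO (interaction) was 0.17 ± 0.34 on the log2 scale, with an interval of -0.58 to 0.91 (adjusted p = 0.884). Both decreases kept their call in each of 15 fits that left out 1 library or all libraries of 1 replicate number, with log2 fold changes of -2.17 to -1.63 without and -1.83 to -1.39 with the inhibitors.

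**Figure D2:**
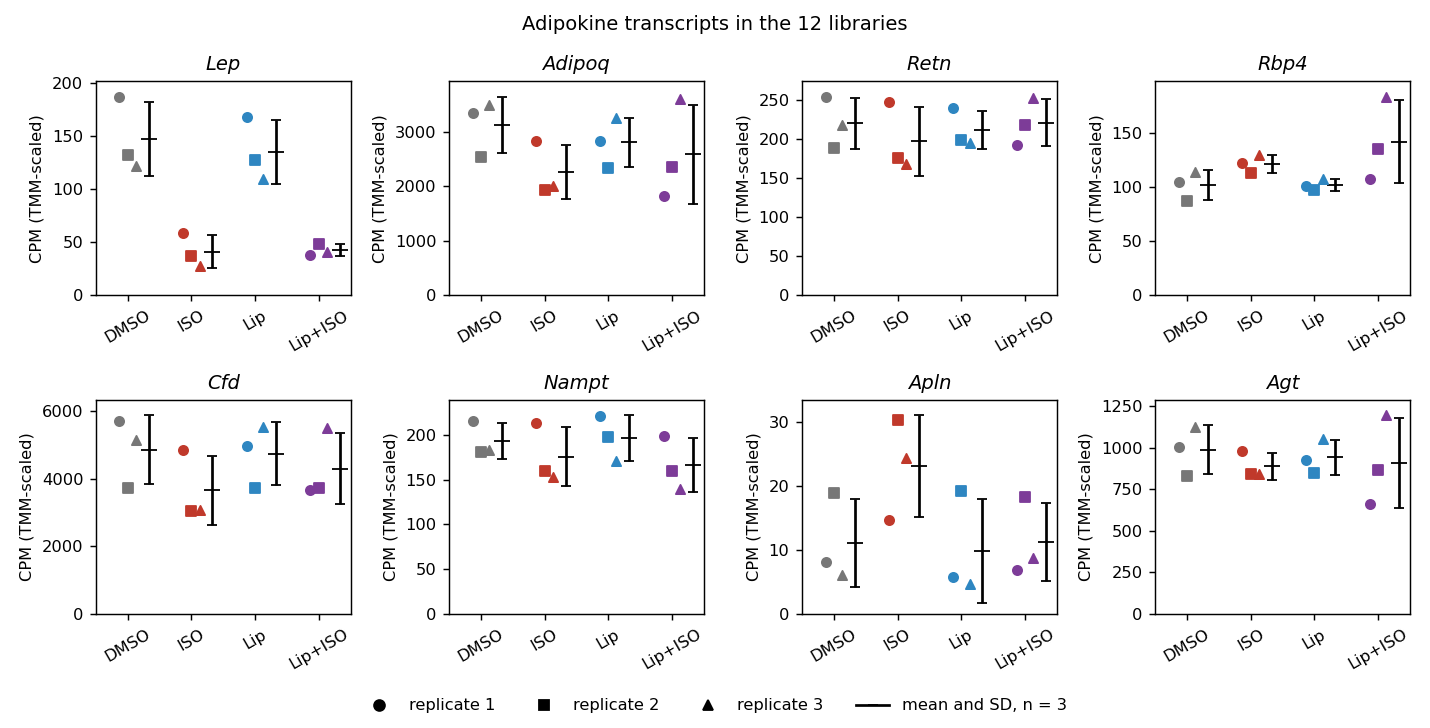
CPM of the 8 adipokine transcripts in each library, with the mean and SD of the 3 libraries of each group beside the points and the shape giving the replicate number. Lep is lower in all 6 libraries with ISO, Apln is highest in ISO, and for every gene but Lep the groups overlap in each of the 4 comparisons. The share of all genes without overlap was not counted.

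Adipoq (NM_009605, mm9 chr16:23146609-23158041, plus strand) encodes adiponectin. It measured 3353, 2542 and 3491 CPM in DMSO, 2839, 1940 and 2016 in ISO, 2836, 2345 and 3246 in Lip, and 1829, 2351 and 3594 in Lip+ISO. Each ISO library was below the DMSO library of the same number, but the groups overlapped. The log2 fold change of ISO against DMSO was -0.47 ± 0.23 SE (95% interval -0.97 to 0.04, adjusted p = 0.156), and that of Lip+ISO against Lip was -0.12 ± 0.23 (adjusted p = 0.77). With the replicate number as a block in the fit, ISO against DMSO gave -0.45 ± 0.19 (95% interval -0.86 to -0.035). That difference was not called either (adjusted p = 0.0814). The Lip+ISO libraries spread most, with an SD of 907 CPM around a mean of 2591, and held both the lowest and the highest Adipoq value of all 12.

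Cfd (NM_001291915, mm9 chr10:79353598-79355405, plus strand) varied in a like way. Its levels were 5700, 3721 and 5151 CPM in DMSO, 4846, 3061 and 3079 in ISO, 4988, 3715 and 5543 in Lip, and 3668, 3716 and 5509 in Lip+ISO. ISO libraries were again lower than DMSO libraries of the same number in 3 of 3 pairs, with overlapping groups. The log2 fold change was -0.41 ± 0.23 for ISO against DMSO (95% interval -0.91 to 0.09, adjusted p = 0.212) and -0.14 ± 0.23 for Lip+ISO against Lip (adjusted p = 0.707). The replicate block gave -0.40 ± 0.17 for ISO against DMSO (95% interval -0.76 to -0.03) without a call (adjusted p = 0.0814).

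Retn (NM_001204959, mm9 chr8:3655770-3659818, plus strand), which encodes resistin, lay between 168 and 255 CPM in all libraries. Group means were 221 ± 32.7 CPM in DMSO, 197 ± 44.1 in ISO, 212 ± 24.6 in Lip and 222 ± 30.2 in Lip+ISO (SD, n = 3). The groups overlapped, and the log2 fold change was -0.16 ± 0.16 for ISO against DMSO (adjusted p = 0.488) and 0.06 ± 0.16 for Lip+ISO against Lip (adjusted p = 0.821). Retn was called higher in Lip+ISO than in ISO only in the fit without replicate 1 of every group (log2 0.46, adjusted p = 0.0323), against 0.17 (adjusted p = 0.568) with all libraries.

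Rbp4 (NM_001159487, mm9 chr19:38191110-38199811, minus strand), the retinol carrier of plasma, was the member that rose with ISO under the inhibitors. The Lip libraries had 102, 97.2 and 108 CPM and the Lip+ISO libraries 108, 136 and 184, so that the lowest Lip+ISO library was within the range of Lip. Replicate 3 of Lip+ISO was the highest of all 12 libraries. The increase was 1.39-fold (log2 fold change 0.48 ± 0.16 SE, adjusted p = 0.0403), with higher values in 3 of 3 same-numbered pairs, against 11.5% of all genes called higher. Without replicate 3 of Lip+ISO it was 0.26 (adjusted p = 0.153), and it was not called in 11 of the 15 fits with libraries left out (adjusted p from 0.0528 to 0.185). The call was kept without replicate 2 or 3 of DMSO, replicate 1 of Lip+ISO, or all of replicate 1. It was also not called with libraries scaled by their totals alone (0.36, adjusted p = 0.0805) or with only the Lip and Lip+ISO libraries in the fit (0.48, adjusted p = 0.0887). With the replicate number as a block the increase was called, at 0.46 ± 0.12 (adjusted p = 0.0093), where 15.5% of all genes were called higher. Without inhibitors, Rbp4 measured 105, 87.6 and 114 CPM in DMSO and 123, 114 and 130 in ISO, where it was also higher in 3 of 3 pairs. That difference did not pass the test (log2 0.25 ± 0.16, adjusted p = 0.253), and the difference between both responses was 0.22 ± 0.22 (95% interval -0.26 to 0.70, adjusted p = 0.722). For ISO against DMSO the block gave 0.26 ± 0.12 (95% interval 0.0034 to 0.52), also without a call (adjusted p = 0.102).

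Nampt (NM_021524, mm9 chr12:33505200-33538234, plus strand) moved little. It had 216, 180 and 183 CPM in DMSO, 213, 160 and 153 in ISO, 221, 197 and 171 in Lip, and 199, 160 and 139 in Lip+ISO. The groups overlapped in each comparison, while each Lip+ISO library was below the Lip library of the same number. The log2 fold change of Lip+ISO against Lip was -0.24 ± 0.15 (adjusted p = 0.285). Same-numbered libraries deviated together in this comparison. Once the replicate number entered the fit as a block, Nampt was called lower, at -0.25 ± 0.07 (adjusted p = 0.0146), where 20.1% of all genes were called lower and 15.5% higher. For ISO against DMSO the value was -0.14 ± 0.15 (adjusted p = 0.532).

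Apln (NM_013912, mm9 chrX:45378323-45388029, minus strand), the precursor of apelin, was the least abundant member and the most variable between replicates. It measured 8.12, 18.97 and 6.11 CPM in DMSO, 14.6, 30.3 and 24.4 in ISO, 5.70, 19.2 and 4.65 in Lip, and 6.83, 18.2 and 8.82 in Lip+ISO. Replicate 2 was the highest library in each of the 4 groups, and the groups overlapped. Against DMSO, Apln was higher in ISO in 3 of 3 same-numbered pairs, by 0.85, 0.67 and 2.00 on the log2 scale. Without a term for the replicate this difference was 1.07 ± 0.56 and was not called (adjusted p = 0.175). Same-numbered libraries deviated together here too. Once the replicate number entered the fit as a block, the log2 fold change was 1.18 ± 0.25 and was called (adjusted p = 0.00337), where 18.8% of all genes were called higher and 19.6% lower. Without replicate 2 of every group it was called with no such term (1.45, adjusted p = 0.0122). In Lip+ISO, Apln was lower than in ISO in 3 of 3 pairs, with a log2 fold change of -1.04 ± 0.56 (95% interval -2.25 to 0.17, adjusted p = 0.286), which was called without replicate 2 (-1.32, adjusted p = 0.0487). The block gave -1.13 ± 0.25 and a call there (adjusted p = 0.00917), although same-numbered libraries did not all deviate together. Among all genes the block called 1149 higher and 1458 lower in that comparison. Against Lip, Lip+ISO differed by 0.20 ± 0.56 (adjusted p = 0.844), and the difference between both responses to ISO was -0.87 ± 0.79 (95% interval -2.59 to 0.84, adjusted p = 0.684). With the block, the difference between both responses was -0.87 ± 0.36 (95% interval -1.66 to -0.08) and was not called (adjusted p = 0.183).

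Apelin is also made by endothelial cells, and endothelial markers moved in the same libraries. The 10 markers, led by Pecam1 and Cdh5, summed to 113, 209 and 132 CPM in DMSO, 201, 393 and 296 in ISO, 57.8, 192 and 93.1 in Lip, and 82.5, 243 and 187 in Lip+ISO. As for Apln, replicate 2 was the highest of each group, and the ISO library was the highest of each replicate number. In ISO against DMSO, 10 of 10 markers had a positive log2 fold change (median 0.94), and in Lip+ISO against ISO 9 of 10 had a negative one (median -0.77), with 0 of 10 called by edgeR and by DESeq2 in each, and 3 and 1 of 10 at an unadjusted p under 0.05. With the replicate number as a block, as for Apln, 9 of the 10 markers were called higher in ISO than in DMSO, all but Vwf, and 6 of 10 rose with ISO under the inhibitors. The block called 7 of 10 lower in Lip+ISO than in ISO. No endothelial marker was at 0 in all libraries. The part of endothelial RNA in the Apln values was not tested.

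**Figure D3:**
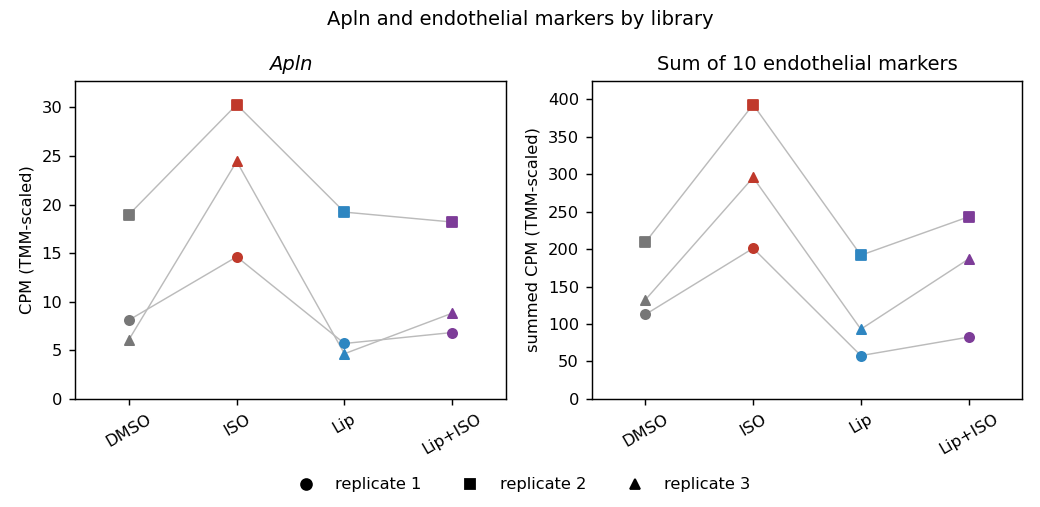
CPM of Apln (left) and the summed CPM of 10 endothelial markers (right) in each library, with lines joining libraries of the same replicate number. Both are highest in ISO for every replicate number, and replicate 2 is the highest library in each group in both panels.

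Agt (NM_007428, mm9 chr8:127080487-127093607, minus strand), the precursor of the angiotensins, did not pass the test in any comparison. Group means were 989 ± 148 CPM in DMSO, 889 ± 80.3 in ISO, 943 ± 105 in Lip and 909 ± 269 in Lip+ISO (SD, n = 3). The Lip+ISO libraries, at 663, 868 and 1196 CPM, included both the lowest and the highest value. The log2 fold change was -0.15 ± 0.18 for ISO against DMSO (adjusted p = 0.562) and -0.05 ± 0.18 for Lip+ISO against Lip (adjusted p = 0.87).

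Counted over the 8 adipokine genes, ISO against DMSO gave 1 called lower and 0 higher, with 6 of 8 log2 fold changes negative and a median of -0.16 (0.00176 over all genes, of which 12.3% were called higher). Lip+ISO against Lip gave 1 lower and 1 higher, with a median of -0.09 (-0.00407 over all genes). A count of 1 in 8 is close to these shares of all genes. Lip against DMSO gave 0 of 8 by edgeR in either direction, 0 by DESeq2 and 0 at an unadjusted p under 0.05, with the lowest unadjusted p at 0.513. Among all genes 0.00738% were called higher there and 0.0443% lower. Lip+ISO against ISO likewise gave 0 of 8 by both tools and 0 at an unadjusted p under 0.05 (the lowest was 0.0868, for Apln), where 4.36% of all genes were called higher and 4.59% lower. For the interaction, 0 of 8 were called by both tools and 0 had an unadjusted p under 0.05 (the lowest was 0.29), where 0.901% of all genes were called higher and 0.724% lower. Comparisons that share a group share its libraries. These counts come from fits without the replicate block. With it, Apln was also called higher in ISO than in DMSO and lower in Lip+ISO than in ISO, and Nampt lower in Lip+ISO than in Lip. The interaction test with the block called no adipokine gene, but gave Apln an unadjusted p of 0.033 (adjusted p = 0.183).

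**Figure D4:**
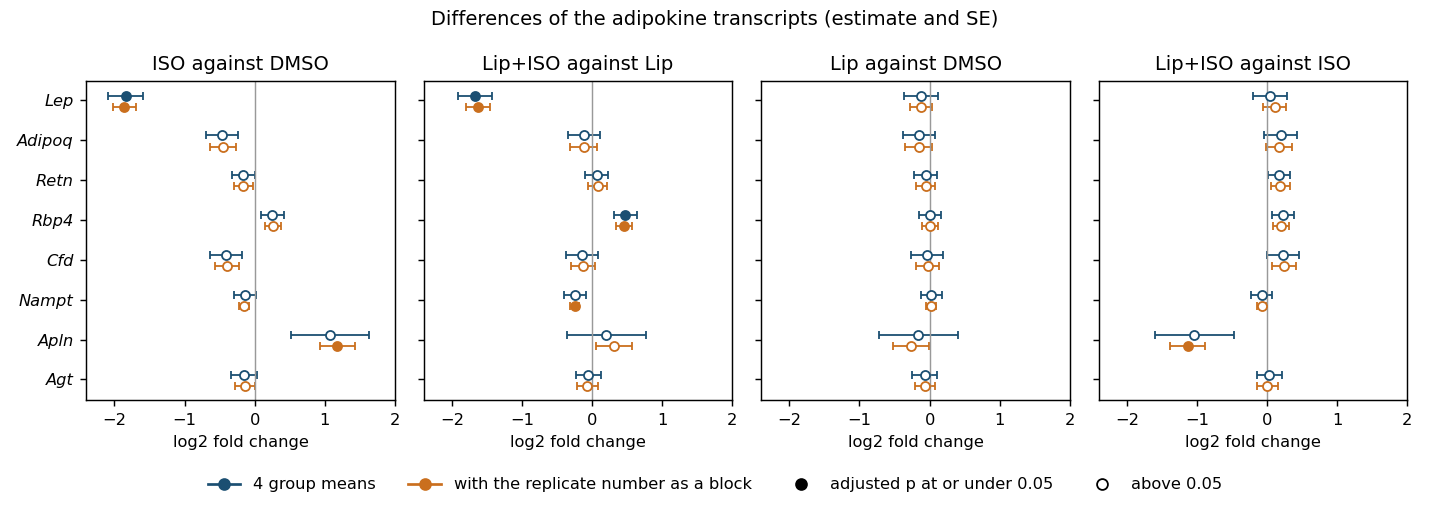
Log2 fold change and SE of the 8 adipokine transcripts in the 4 comparisons, without (blue) and with (orange) the replicate number as a block, filled where the adjusted p was at or under 0.05. Lep stands near -1.8 and -1.7 in both comparisons with the agonist, and the values of Lip against DMSO lie close to 0.

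The genes whose log2 CPM followed each member most closely over the 12 libraries were found among 9837 genes with a mean of at least 5 CPM. These correlations describe libraries that share their groups, their replicate numbers and their scaling. For Lep they were Fan1 (r = 0.983), Fbxl20 (0.981) and AW549877 (0.979). For Adipoq they were Adig, which encodes adipogenin (0.983), Chrdl1 (0.976) and Nnat (0.975), and for Cfd Tmem134 (0.983), Mecr (0.971) and Rhbdl1 (0.966). For Retn they were Bscl2, which encodes seipin (0.977), Ptgr2 (0.968) and Gstz1 (0.948), and for Rbp4 Arhgap23 (0.941), Clp1 (0.941) and Txn2 (0.924). Nampt was followed by Ppp1r9a (0.975), Copg2 (0.940) and Kif16b (0.916), and Agt by Ndufv1 (0.934), Car3 (0.931) and Hadhb (0.928). The closest to Apln were Ctla2a (0.975), Plvap, which encodes a protein of endothelial diaphragms (0.974), and Acvrl1 (0.973).

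Of 13 tested receptor genes of the adipokines, 4 were called higher and 2 lower in ISO than in DMSO (median log2 fold change 0.83), where 12.3% and 13.9% of all genes were called. With the inhibitors, ISO gave 2 higher and 1 lower (median 0.46), against 11.5% and 15.8% of all genes. The replicate block gave 6 higher and 2 lower without the inhibitors, and 4 and 1 with them. Cdh13, which encodes T-cadherin, a receptor of adiponectin, was among those called by the block in ISO against DMSO (1.27 ± 0.21, adjusted p = 0.000616, against 0.071 without it). It had 5.25 ± 2.34 CPM in DMSO, 12.45 ± 4.17 in ISO, 4.73 ± 3.18 in Lip and 6.90 ± 2.76 in Lip+ISO (SD, n = 3). The summed endothelial markers were also highest in ISO, and the part of endothelial RNA in the Cdh13 values was not tested. Adipor2 had 1795 ± 169 CPM in DMSO, 1274 ± 160 in ISO, 1452 ± 216 in Lip and 996 ± 66.9 in Lip+ISO (SD, n = 3). It fell by 0.50 on the log2 scale with ISO (adjusted p = 0.0113) and by 0.54 with ISO under the inhibitors (adjusted p = 0.00561). The first call was lost in 5 of the 15 fits with libraries left out (without replicate 1 of DMSO, replicate 2 or 3 of ISO, or all of replicate 2 or 3, with adjusted p from 0.0505 to 0.101) and the other without replicate 2 (-0.56, adjusted p = 0.0754). Adipor1 had a log2 fold change of -0.06 ± 0.09 with ISO (adjusted p = 0.64). The leptin receptor Lepr was near the limit of detection, at 0.88 ± 0.40 CPM in DMSO and 1.26 ± 0.39 in ISO, and Aplnr, the apelin receptor, at 0.46 ± 0.39 and 0.84 ± 0.49.

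Tlr4, which resistin has been reported to bind, fell with ISO alone (log2 -0.74 ± 0.07, adjusted p = 1.61e-05). It was 1.09 ± 0.08 higher on the log2 scale in Lip+ISO than in ISO (adjusted p = 3.82e-06), and its response to ISO differed with the inhibitors by 0.90 ± 0.11 (adjusted p = 0.00116), a call lost without replicate 2 of every group (0.92, adjusted p = 0.0759). Ccrl2, a receptor that binds the adipokine chemerin, rose by 3.00 ± 0.35 with ISO and by 3.60 ± 0.35 with ISO under the inhibitors (log2, adjusted p = 5.68e-05 and 7.61e-06). It started near the limit of detection, at 0.98 ± 0.54 CPM in DMSO and 0.94 ± 0.27 in Lip (SD). It reached 7.89 ± 1.44 CPM in ISO and 11.3 ± 2.29 in Lip+ISO. Macrophage markers rose with ISO, as Ccrl2 did, while Tlr4 fell. Their 9 tested members were all positive in ISO against DMSO, with 7 called higher and a median log2 fold change of 1.07, and the summed list of 10 lay at 50.67 to 65.46 CPM in DMSO, 109.2 to 162.3 in ISO, 54.06 to 60.43 in Lip and 69.51 to 121.6 in Lip+ISO, with 0 of 10 markers at 0 throughout. In Lip+ISO against ISO, 1 of the 9 tested macrophage markers was positive (median log2 fold change -0.34), while Tlr4 was higher. Without the block, edgeR called 0 of these 9 markers, and 4 had an unadjusted p under 0.05. DESeq2 called 2 of them lower and so did the replicate block, where these fits called 828 and 1458 of all genes lower. The part of macrophages in the receptor values was not tested.

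Among 35 other secreted factors of adipocytes, 7 were called higher and 3 lower with ISO (median log2 fold change 0.05), and 4 higher and 6 lower with ISO under the inhibitors (median 0.09). The shares of all genes were 12.3% and 13.9% in the first comparison and 11.5% and 15.8% in the other, so these counts lie on both sides of the background. The replicate block gave 10 and 5 of the 35, and then 5 and 9. Metrnl, a secreted factor of fat and muscle, rose by 1.98 ± 0.18 on the log2 scale with ISO and by 1.92 ± 0.18 with ISO under the inhibitors (adjusted p = 8.46e-06 and 5.72e-06). Il6, a cytokine, rose by 2.61 ± 0.27 and 2.55 ± 0.26 in the same comparisons (adjusted p = 2.08e-05 and 1.09e-05), from 1.097 ± 0.50 CPM in DMSO. Vegfa, the vascular growth factor, rose by 1.15 ± 0.17 with ISO (adjusted p = 0.000377). Npr3, a receptor that clears natriuretic peptides and also stands in this list, fell by 0.79 with ISO (SE 0.12, adjusted p = 0.000441). Angptl4, an inhibitor of lipoprotein lipase, had 1299 ± 123 CPM in DMSO, 1078 ± 70.8 in ISO, 747 ± 60.9 in Lip and 149 ± 28.4 in Lip+ISO. Its log2 fold change of -0.80 ± 0.13 in Lip against DMSO was not called (adjusted p = 0.0654), nor was the -0.27 ± 0.13 of ISO against DMSO (adjusted p = 0.144), while both were called with the block (adjusted p = 0.00334 and 0.0227). It was lower in Lip+ISO than in ISO by a log2 fold change of -2.86 ± 0.14 (adjusted p = 2.7e-07). In that comparison 5 of the 35 factors were called lower and 0 higher, where 4.59% of all genes were called lower and 4.36% higher. DESeq2 called 7 of the 35 lower. The replicate block called 11 lower and 1 higher, where it called 1458 of all genes lower and 1149 higher. Fibroblast and preadipocyte markers summed to 728 to 1118 CPM in DMSO, 1212 to 1600 in ISO, 831.8 to 888.9 in Lip and 727.8 to 1021 in Lip+ISO, with 4 of 10 called higher in ISO than in DMSO, 4 of 10 lower in Lip+ISO than in ISO and 0 of 10 at 0. The block called 10 of 10 of them higher in ISO than in DMSO. Mesothelial markers summed to 28.54 to 69.07, 72.27 to 83.74, 15.7 to 98.65 and 45.56 to 64.64 CPM in the same order, with 1 of 8 called higher in ISO and 3 of 8 with the block. Their part in the secreted factors was not tested.

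The pathways around single members are given by their lists, and the counts of most of these small lists were near or below the shares of all genes (12.3% higher and 13.9% lower in ISO against DMSO, 11.5% and 15.8% in Lip+ISO against Lip). In the alternative complement pathway, which adipsin starts, 1 of 9 tested genes was called in ISO against DMSO, the complement inhibitor Cd55. It rose from 16.6 ± 1.44 CPM in DMSO to 104 ± 18.5 in ISO, and from 17.0 ± 2.32 in Lip to 415 ± 140 in Lip+ISO. The log2 fold changes were 2.64 ± 0.22 (adjusted p = 2.63e-06) and 4.61 ± 0.23 (adjusted p = 2.22e-08), while C3, the substrate of the pathway, had 0.33 ± 0.20 in ISO against DMSO (adjusted p = 0.237). In the list of NAD salvage and use, 2 of 13 were called higher in ISO (4 higher and 1 lower with the replicate block), and 3 higher and 2 lower in Lip+ISO against Lip. Nnmt, which methylates the Nampt substrate nicotinamide, rose by 1.09 ± 0.11 with ISO and by 1.98 ± 0.11 with ISO under the inhibitors on the log2 scale (adjusted p = 1.48e-05 and 5.5e-08).

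In the renin-angiotensin and apelin system, 3 of 9 genes were called higher and 1 lower in ISO against DMSO, with the same counts in Lip+ISO against Lip. The replicate block gave 5 and 1, and then 4 and 1. Enpep, the aminopeptidase that cleaves angiotensin, rose by 0.91 ± 0.18 on the log2 scale with ISO (adjusted p = 0.00279), and Atp6ap2, the prorenin receptor, by 0.42 ± 0.09 (adjusted p = 0.00324). Of 12 genes of adiponectin assembly and secretion, 1 was called in ISO against DMSO, the chaperone Canx (log2 0.38 ± 0.07, adjusted p = 0.00208), which was not called without replicate 2 (0.37, adjusted p = 0.0661). The block called 3 of the 12 higher and 2 lower there. In Lip+ISO against Lip, 2 of these 12 were called higher and 1 lower, and 3 and 1 with the block. Of 10 genes of retinoid transport and synthesis, 1 was called lower in each response to ISO, a different gene each time. In ISO against DMSO it was Rdh10 (log2 -0.52, adjusted p = 0.0201). In Lip+ISO against Lip it was Dhrs3, a retinaldehyde reductase (-0.42, adjusted p = 0.0132). These calls were lost in 6 and 5 of the 15 fits with libraries left out. In Lip+ISO against ISO 2 were called lower, among them Dhrs3 (log2 -0.97 ± 0.11, adjusted p = 0.000185). With the block, 3 of the 10 were called higher and 1 lower in ISO against DMSO.

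Of 16 transcription factors known from adipokine promoters, 7 were called higher and 6 lower in ISO against DMSO (median log2 fold change -0.03), where 12.3% and 13.9% of all genes were called. Lip+ISO against Lip gave 6 and 6 (median 0.06), beside 11.5% and 15.8% of all genes. Cebpb, a C/EBP factor, rose by 2.06 ± 0.18 on the log2 scale with ISO (adjusted p = 5.52e-06). The C/EBP factors of the list did not move together. Cebpa had 2074 ± 319 CPM in DMSO, 1484 ± 240 in ISO, 1836 ± 258 in Lip and 976 ± 156 in Lip+ISO (SD). Cebpd had 12.8 ± 0.83 CPM in DMSO, 12.9 ± 2.07 in ISO, 16.8 ± 1.55 in Lip and 22.7 ± 1.75 in Lip+ISO. Crem, which encodes cAMP-responsive factors, rose by 2.85 ± 0.10 with ISO and by 3.78 ± 0.11 with ISO under the inhibitors (adjusted p = 6.66e-09 and 7.89e-10). Srebf1, a lipogenic factor, had log2 fold changes of -0.76 ± 0.09 and -1.24 ± 0.09 (adjusted p = 4.78e-05 and 4.85e-07). Pparg, the main adipogenic nuclear receptor, fell with ISO from 338 ± 16.5 to 246 ± 19.4 CPM (adjusted p = 0.00165) and measured 330 ± 7.00 CPM in Lip and 360 ± 30.3 in Lip+ISO, where its log2 difference of 0.13 ± 0.08 did not pass the test (adjusted p = 0.306). Of the 117 tested genes in these 8 lists, edgeR called 0 in Lip against DMSO, where 11 had an unadjusted p under 0.05 and DESeq2 called 2 lower. The replicate block also called 2 lower, Angptl4 and Srebf1 (-0.40 ± 0.06, adjusted p = 0.0251), where 0.0443% of all genes were called higher and 0.155% lower.

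**Figure D5:**
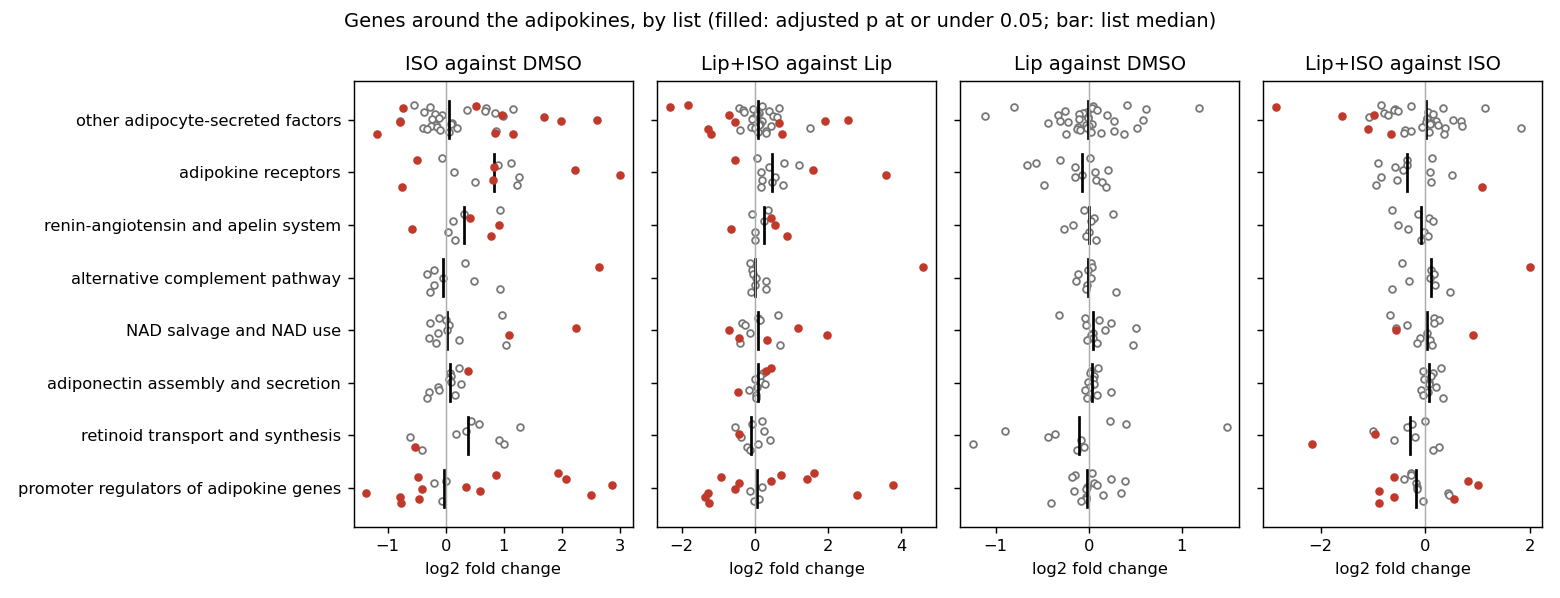
Log2 fold change of each tested gene of 8 lists around the adipokines in the 4 comparisons, filled where the adjusted p was at or under 0.05, with a bar at the list median. Called genes lie on both sides of 0 in the lists of promoter regulators and secreted factors, and no gene is filled in Lip against DMSO in these fits without the replicate block.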

How the data were processed

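The deposited table holds raw counts per RefSeq gene, which the authors made by aligning reads to mm9 with STAR (2.4.2a) and counting with HOMER and iRNA-seq. HOMER kept 1 read per position and length. Use of strand in counting is not stated. Transcript and counted lengths in the table gave CPM per kb. Groups and replicate numbers came from the sample titles. The methods describe 3 independent experiments. Their figure legend names SR-3420 for these cells, while titles and text name ISO, which was used.

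All 12 libraries (22632220 to 43707557 counts) entered 1 quasi-likelihood fit in edgeR 4.0.16 (R 4.3.3) with a mean per group, TMM scaling (factors 0.924 to 1.07) and filterByExpr, without a replicate term. The F-tests were two-sided and p-values were adjusted by Benjamini-Hochberg over 13543 genes, with calls at 0.05. The fit was tested on simulated data. Alternatives were DESeq2 1.42.0, other scaling, no filter, a replicate block, the compared groups alone, a fold threshold and left-out libraries. Deviations of same-numbered libraries correlated over genes at 0.139 to 0.331 (ISO against DMSO), 0.197 to 0.369 (Lip against DMSO) and 0.192 to 0.298 (Lip+ISO against Lip), every pair above 0.1, so the numbers were taken to pair these samples. For Lip+ISO against ISO the range was 0.0373 to 0.311, and 2 of 3 libraries correlated best with their own number. The same numbers run through all 4 groups, so these low values do not show that the samples are unpaired. The block is given there with that limit.

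The members and lists were chosen with earlier results of these data known. From each list at most 4 genes per comparison were named, those with the smallest adjusted p, plus receptors and pathway genes the list holds that are tied to a member. The 3 likest genes per member were named by Pearson r of log2 CPM (prior count 2). Promoters were matched by symbol to RefSeq windows in GRCm38.p6 (8 of 8 members, 9 windows), and no coordinate was converted from mm9.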

Additional observations from a re-analysis of the deposited data

Results flagged for a closer look

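No adipokine gene had a response to ISO that differed with the inhibitors by the interaction test, and outlying samples were not tested for within groups of 3 libraries. Of the 117 tested genes of the lists, 8 were called for the interaction by edgeR (adjusted over all genes), 5 higher and 3 lower. Among all genes 0.901% were called higher and 0.724% lower. The lists were chosen with earlier results of these data known. The log2 difference, the response with inhibitors minus that without, was -2.06 for Angptl4 (adjusted p = 0.000195), -0.65 for the secreted kinase gene Fam20c (0.0295) and -0.72 for Hif1a (0.0372). It was 0.90 for Tlr4 (0.00116), 1.97 for Cd55 (0.00422), 0.90 for Nnmt (0.0106), 0.58 for Pparg (0.0274) and 0.93 for Crem (0.00495). Over the 15 fits with libraries left out, Angptl4 was called in 15. Tlr4 (0.92, adjusted p = 0.0759) and Cd55 (1.99, adjusted p = 0.117) were not called without replicate 2. Nnmt (0.90, adjusted p = 0.195, and 0.73, adjusted p = 0.124) and Crem (0.91, adjusted p = 0.18, and 0.94, adjusted p = 0.0805) were not called without replicate 2 or without replicate 3. Fam20c and Pparg were called in 4 of the 15 and Hif1a in 3.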

How the results depend on the processing

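The decrease of Lep with ISO, with and without inhibitors, kept its direction and call under every alternative run. With the replicate block, 1 adipokine gene was called higher in ISO than in DMSO (Apln), 2 were lower in Lip+ISO than in Lip (Lep and Nampt) and 1 was lower in Lip+ISO than in ISO (Apln, log2 -1.13, adjusted p = 0.00917, where same-numbered libraries did not all deviate together and 2 of 3 correlated best with their own number). There the block also called 7 of 10 endothelial markers lower. The block changed no other call of an adipokine gene. The count of members higher in Lip+ISO than in Lip was 0 with library totals alone, with only the compared groups and with a log2 fold change of at least 1. With libraries left out, the counts ran from 0 to 1 for higher in ISO, higher in Lip+ISO than in Lip, and both directions of Lip+ISO against ISO. Apln was called without replicate 2 in ISO against DMSO (1.45, adjusted p = 0.0122) and in Lip+ISO against ISO (-1.32, adjusted p = 0.0487). The cause was not tested.

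Apart from left-out libraries, 6 fold changes of members turned sign, none of them called. Lip against DMSO gave Rbp4 -0.00256 (DESeq2 size factors), -0.00597 (no filter) and -0.00251 (DESeq2 test), and with library totals alone Cfd 0.00299. With library totals alone Retn was -0.0482 in Lip+ISO against Lip and Agt -0.00946 in Lip+ISO against ISO. That scaling moved the median of all genes in Lip+ISO against Lip to -0.115, with 1069 called higher and 2968 lower against 1562 and 2140 in TMM scaling, and gave 1365 and 2329 against 1670 and 1878 in ISO against DMSO. Blocked fits called 2552 and 2660 there, and 1149 and 1458 in Lip+ISO against ISO against 590 and 621. With libraries left out, 64 fold changes of members turned sign, over these ranges. In Lip against DMSO they were -0.325 to 0.0849 for Lep, -0.169 to 0.0583 for Retn, -0.107 to 0.0855 for Rbp4, -0.199 to 0.115 for Cfd, -0.0808 to 0.112 for Nampt, -1.09 to 0.454 for Apln and -0.185 to 0.0338 for Agt. Lip+ISO against Lip gave -0.411 to 0.102 for Adipoq, -0.0970 to 0.268 for Retn, -0.348 to 0.00842 for Cfd, -0.322 to 1.12 for Apln and -0.286 to 0.1304 for Agt. Lip+ISO against ISO gave -0.171 to 0.457 for Lep, -0.194 to 0.596 for Adipoq, -0.0420 to 0.464 for Retn, -0.0994 to 0.595 for Cfd, -0.230 to 0.0825 for Nampt and -0.253 to 0.3004 for Agt. The interaction gave -0.0467 to 0.565 for Lep, -0.00724 to 0.711 for Adipoq, -0.0296 to 0.511 for Retn, -0.00272 to 0.387 for Rbp4, -0.253 to 0.0589 for Nampt, -1.49 to 0.0558 for Apln and -0.2001 to 0.348 for Agt. The named genes of the lists turned no sign, but 115 of their fold changes lost the call with a library or number left out, and 9 under other alternatives. These were Enpep, Sirt1, Canx and Calr in Lip+ISO against Lip (library totals alone), Dhrs3 there and Vegfa and Nmnat3 in Lip+ISO against ISO (only the compared groups), Nmnat3 also with no filter, and the Hif1a interaction (DESeq2 size factors, adjusted p = 0.0512).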
